A study of Mus musculus with 22 samples.

Results

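The long lamina-associated blocks of untreated mouse embryonic fibroblasts were followed through 4 treatments. Lamina-associated domains (LADs) are stretches of chromatin that lie at the inner face of the nuclear envelope. A consensus block was a continuous run of bases inside LADs of all 3 wild-type (WT) lists on chromosomes 1 to 19, after intervals less than 25 kb apart had been joined and only LADs over 100 kb kept. Of 2105 consensus blocks, the 328 of 1 Mb or more (15.6%) were studied. They held 683.9 of the 1270 Mb of consensus (53.8%). The blocks were chosen by their measured WT calls, so WT coverage is 100% and WT breaks are 0 by construction, and neither is a result.

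LADs are gene-poor, mostly silent chromatin rich in methylated histones, and in fibroblasts they are held at the lamina with the help of A-type lamins and of histone marks. In DamID a lamin B1 protein carrying the DNA-methylating enzyme Dam leaves its mark on DNA near the lamina of the living cell, and the marks are read against those of a control library. A LAD list is therefore a record of contact called present or absent, with no level attached to it.

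The cells were primary fibroblasts (MEFs) from C57bl/6 embryos at day e13.5, grown for at most 5 passages. The 22 libraries form 11 pairs of an experiment and a control library, and each pair gave 1 LAD list: 3 for WT, whose labels give no treatment, and 2 each for shAC, BIX01294, DZNep and TSA. shAC cells received a knockdown virus against lamin A/C, were selected with puromycin, were given the Dam virus 4 days after the first infection and were collected 48 h later. BIX01294 inhibits the histone methyltransferase G9a, DZNep lowers histone methylation by EZH2 and TSA inhibits histone deacetylases; each drug was given for 18 to 24 h before the Dam virus, with harvest at 60 h.

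WT cells came from the embryos labelled 1.5, 1.8 and x17, shAC cells from 1.5 and x17, and the drug-treated cells from 1.8 and x17. A treatment therefore had 2 animals, which also supplied WT cells. No control hairpin or solvent control is among the lists, and neither lamin A/C nor any histone mark was measured in them, so the knockdown and the drug effects could not be checked here. Summed over the autosomes, LADs spanned 1377, 1507 and 1429 Mb in the WT lists and 1302 to 1536 Mb in the treated lists. The sequencing depth behind the lists is unknown.

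The long blocks had a median length of 1.69 Mb, with quartiles of 1.27 and 2.50 Mb. There were 199 blocks under 2 Mb and 24 above 4 Mb, with the rest between. The longest was chr7:39065907-46760874 (mm9), at 7.695 Mb. Just inside the 1 Mb limit were chr3:69579271-70581658 at 1002.39 kb, chr6:135400390-136406455 at 1006.07 kb and chr17:48551988-49560716 at 1008.73 kb. Just outside were chr7:5074419-6071445 at 997.027 kb, chr3:22885188-23879388 at 994.201 kb and chr1:40952595-41946291 at 993.697 kb. Chromosome 1 held the most blocks, 25, and chromosome 19 the fewest, 8. The share of a chromosome's called span inside long blocks ran from 18.8% on chromosome 11 to 39.9% on chromosome 14. In the WT lists the LADs that held these blocks had medians of 2.04, 2.08 and 2.24 Mb. A WT LAD that holds a block cannot be shorter than it, so medians above that of the blocks follow from the rule.

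The long blocks lay almost wholly inside LADs in every treated list, and the TSA lists left the most of them uncovered. Coverage, the percentage of block bases inside LADs, was 99.53% for shAC embryo 1.5 and 98.84% for shAC embryo x17. It was 99.34% for BIX01294 embryo 1.8 and 99.77% for BIX01294 embryo x17, and 99.42% and 99.46% for DZNep embryos 1.8 and x17. In TSA it was 96.66% in embryo 1.8 and 97.01% in embryo x17. Both TSA lists lay below all 6 of the other treated lists, while the shAC, BIX01294 and DZNep lists overlapped.

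Missing sequence amounted to 22.84 and 20.46 Mb in the TSA lists against 1.578 to 7.945 Mb in the others. Mean coverage was 96.83% ± 0.246 (SD, n = 2) in TSA and 99.39% ± 0.308 (SD, n = 6) in the other treated lists, a difference of -2.56 percentage points (-1.26 with the lists as deposited, -4.63 with LADs over 500 kb only). This was the most extreme of the 28 ways to choose 2 of 8 lists (exact permutation test, two-sided, p = 0.0357, the smallest p possible, and 0.143 after Benjamini-Hochberg adjustment over 12 tests). The adjusted value therefore missed 0.05. It was already known from earlier results on these lists that TSA stood apart, so the comparison is not independent evidence.

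Total LAD length moved with coverage at the extremes. The 3 lists with the least sequence in LADs, TSA embryo x17 (1302 Mb), shAC embryo x17 (1339 Mb) and TSA embryo 1.8 (1356 Mb), also had the lowest coverage, at 97.01%, 98.84% and 96.66%. The list with the most, BIX01294 embryo x17 (1536 Mb), had the highest, at 99.77%. The order failed within the lowest 3, and the 4 lists between, from 1431 to 1481 Mb, had 99.34% to 99.53%, with the highest coverage in the shortest of them. The part of total LAD length in the TSA difference was not tested.

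**Figure D1:**
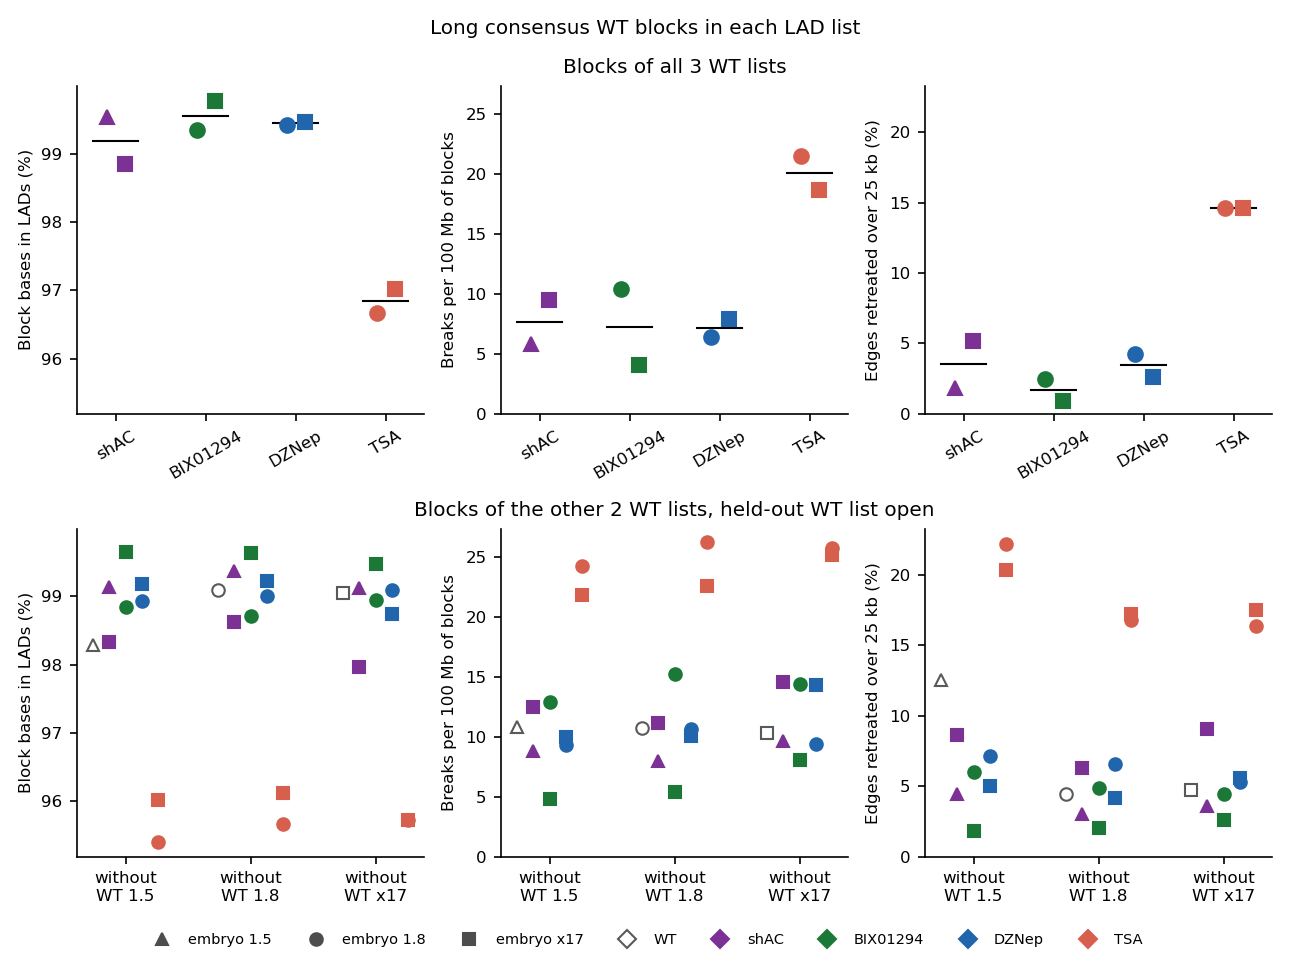
Coverage of long blocks (%, axis not from 0), breaks per 100 Mb and edges retreated over 25 kb (%) in each treated list on the blocks of all 3 WT lists (top, bars are means), and in the held-out WT list (open) and the treated lists on blocks of the other 2 WT lists (bottom), with embryos as symbols and treatments as colours. At the top the TSA lists sit at 96.66% and 97.01% coverage, 21.49 and 18.72 breaks per 100 Mb and 14.63% retreated edges, apart from the other 6 lists; values in the 2 rows are on different blocks, and WT is compared within the bottom row.

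Breaks inside the blocks were most frequent in TSA. A break was an uncovered stretch with covered bases of the same block on both sides. TSA embryo 1.8 had 147 breaks in 106 blocks and TSA embryo x17 had 128 in 91 blocks, or 21.49 and 18.72 breaks per 100 Mb of block. The other lists ran from 28 breaks in 25 blocks (4.09 per 100 Mb, BIX01294 embryo x17) to 71 breaks in 63 blocks (10.38 per 100 Mb, BIX01294 embryo 1.8). shAC had 40 and 65 breaks in embryos 1.5 and x17, and DZNep 44 and 54 in embryos 1.8 and x17. The BIX01294 lists were thus at the bottom and the top of the range of the 6 lists.

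TSA had 20.1 ± 1.96 breaks per 100 Mb (SD, n = 2) against 7.36 ± 2.36 (SD, n = 6) for the other treated lists. The difference of 12.75 had p = 0.0357 and adjusted p = 0.143 (exact permutation test, two-sided). Its size depended on the settings: it was 25.2 with the lists as deposited, 4.12 with LADs over 500 kb only, and 6.43 and 2.85 when breaks of at least 50 or 100 kb were counted. No block had more than 4 breaks in any treated list.

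Most breaks were short. Between 60.9% and 92.9% of the breaks of a list were under 50 kb, and the median break was 31.61 to 43.79 kb. Breaks of 100 kb or more numbered 23 and 21 in the TSA lists and 0 to 6 in the others. The longest single breaks were 403.8 and 413.6 kb in the TSA lists, 244.8 kb in shAC embryo x17 and at most 160.4 kb in the remaining lists. Intervals in the deposited lists are never closer than 10001 bases, and gaps from there to 25 kb were closed by the joining. Inside the long blocks these closed gaps numbered 24.6, 45.8 and 55.1 per 100 Mb in the WT lists and 39.0 to 59.1 in the treated lists, with TSA at 57.5 and 58.6, near shAC embryo x17 at 59.1.

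Block edges also lay further in after TSA. An edge was counted as retreated where the first covered base was more than 25 kb inside the block. Of 656 edges, 96 (14.63%) had retreated in each TSA list. The counts in the other lists were 12 and 34 for shAC, 16 and 6 for BIX01294, and 28 and 17 for DZNep, or 0.915% to 5.18% of edges. TSA edges retreated in similar numbers on both sides, 51 left and 45 right in embryo 1.8, and 50 and 46 in embryo x17.

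The mean over the other 6 lists was 2.87% ± 1.58 (SD, n = 6), and the difference of 11.76 percentage points again gave p = 0.0357 and adjusted p = 0.143 (exact permutation test, two-sided). This difference was 5.26 with the lists as deposited and 21.27 when any retreat was counted. Across all 4 treatments, differences between treatments made up 96.22% of the variance among the 8 lists in coverage, 88.61% in breaks and 96.28% in retreat. Over all ways to pair the 8 lists this gave p = 0.114, 0.143 and 0.0762 (exact permutation tests, one-sided, each 0.143 after adjustment over the 3 measures). For shAC, BIX01294 and DZNep against the other treated lists, p ranged from 0.107 to 0.857 in exact permutation tests.

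Retreat was measured from the innermost of the WT edges, and WT embryos differed widely in where their LADs ended. The distance between the innermost and outermost WT edge had a median of 85.2 kb, with quartiles of 18.2 and 516 kb. WT embryo 1.5 set the innermost position at 47.4% of edges, against 30.5% for embryo 1.8 and 27.7% for embryo x17. In TSA, 36.1% and 37.8% of edges lay inside the innermost WT edge, 46.2% and 48.2% within the WT range, and 17.7% and 14.0% beyond the outermost WT edge. In the other lists 9.76% to 20.6% lay inside and 18.0% to 32.9% beyond. Against the median of the WT positions, the median TSA edge was shifted by -5.99 and -5.90 kb, that is inward, and the other lists by 0 to 5.38 kb.

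The same order held at sharply placed edges. At the 199 edges where the WT lists ended within 25 kb of each other, 9.55% and 10.6% had retreated in TSA and 0.503% to 4.52% in the other lists. At the 457 edges with a wider WT range the TSA values were 16.9% and 16.4%, against 1.09% to 5.47% elsewhere.

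**Figure D2:**
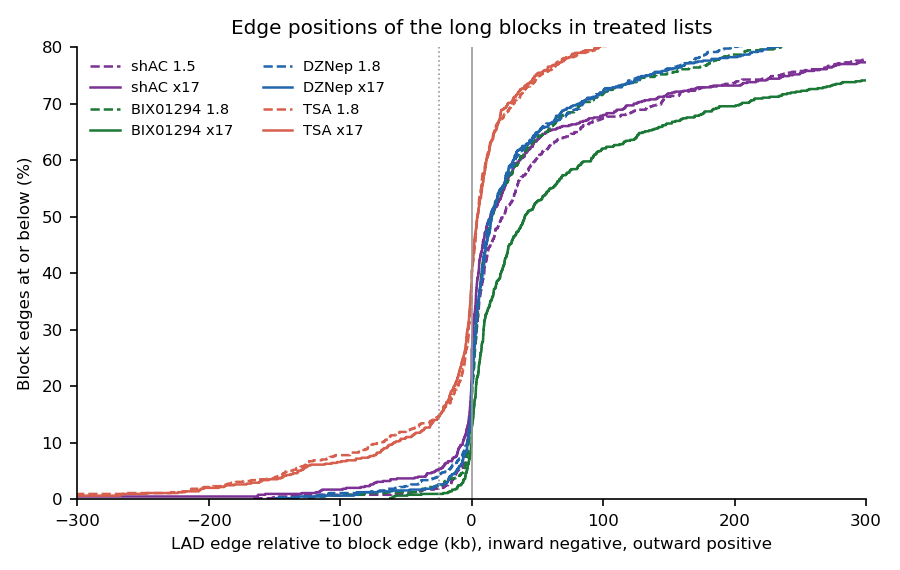
Cumulative percentage of the 656 block edges (vertical axis, to 80%) by the position of the LAD edge relative to the block edge in kb (negative inward, dotted line at 25 kb inward), 1 line per treated list. Both TSA lines run above the others on the inward side, where they cross the dotted line at 14.63% against 0.915% to 5.18% in the other lists.

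The TSA lists of the 2 embryos shared many of their retreated edges. Of the 96 in each list, 63 were shared (65.6% of each list), and at 43 of these the new edges lay within 25 kb of each other. In the same terms the shared edges made up 16.7% and 5.88% of the shAC lists, 18.8% and 50% of the BIX01294 lists and 21.4% and 35.3% of the DZNep lists, which had fewer retreated edges to share. Of the 63 TSA edges, 48 lay where the WT range was over 25 kb. Both lists were measured from the same innermost WT edge, so the sharing is a description and was not tested. The shared edges had a median retreat of 111 kb and a deepest of 830.9 kb. They made up 9.6% of all long-block edges, while over the edges of consensus blocks of every length 13.8% had retreated in both TSA lists. Retreat in both lists of a treatment reached 2 long-block edges in shAC (4.3% over blocks of every length), 3 in BIX01294 (0.903%) and 6 in DZNep (1.43%). All 4 shares of long-block edges, 0.305% for shAC, 0.457% for BIX01294, 0.915% for DZNep and 9.6% for TSA, were below that background. However, the background counts both edges of a wholly uncovered block as retreated, and no long block was wholly uncovered. Of the 873 consensus blocks under 250 kb, 199 and 217 were wholly uncovered in TSA and 74 and 189 in shAC. The other lists had 20 to 42 such blocks. The comparison is therefore not one of edge retreat alone.

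Of the 147 breaks of TSA embryo 1.8, 55 (37.4%) overlapped a break of TSA embryo x17, and 54 of the 128 breaks of embryo x17 (42.2%) overlapped one of embryo 1.8. The breaks of the TSA lists overlapped those of any other treated list at 5.44% to 18.8%. Within shAC, BIX01294 and DZNep, the lists of a treatment shared 11.3% to 28.6% of their breaks, counted from either list. Seen from those lists, 22.5% to 39.3% of breaks lay where a TSA list also had one. The TSA lists have more breaks to be met by, and they stem from embryos that supplied most of the other lists.

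Long blocks with a break in both lists numbered 62 in TSA (18.9% of long blocks, against 4.18% over consensus blocks of every length). There were 17 in shAC (5.18% against 1.71%), 14 in BIX01294 (4.27% against 0.95%) and 14 in DZNep (4.27% against 1.33%). A longer block has more bases in which a break can fall, so these shares cannot be read as a higher rate.

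Large losses from a block were uncommon. Under 90% coverage in both lists was found for 21 long blocks in TSA (6.4%, against 20.3% of consensus blocks of every length), for 1 in shAC (7.08% of all), and for 0 in BIX01294 (1.9% of all) and in DZNep (2.85% of all). The 90% limit asks for a longer loss from a longer block, so these shares cannot be read as a lower rate of loss. The counts of long blocks under 90% moved by more than 1.5 times with the WT lists used. On blocks made without WT embryo x17 they were 39 in TSA, 5 in shAC, 3 in DZNep and 1 in BIX01294. Without WT embryo 1.5, TSA had 35 and shAC 2, and without WT embryo 1.8, DZNep had 2. In single lists, 39 and 36 blocks fell under 90% in TSA and 0 to 13 in the other lists. Of the 328 blocks, 267 kept at least 90% coverage in all 8 treated lists and 325 kept at least 50%. None was wholly uncovered in any list.

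Long blocks covered to the last base in both lists numbered 133 in shAC (40.5%, against 33.5% of consensus blocks of every length) and 161 in BIX01294 (49.1% against 52.5%). There were 136 in DZNep (41.5% against 44.9%) and 49 in TSA (14.9% against 19.9%). The BIX01294 and DZNep shares lay near that background, which includes the long blocks, and no difference from it was tested. A longer block has more bases in which a break can fall, so these shares cannot be read as a trait of long blocks. In the 6 lists other than TSA, 51 blocks were complete throughout, and 20 blocks were complete in all 8. Another 10 blocks were complete in none. The longest blocks complete in all 8 lists were chr1:101281762-106470624 (5.189 Mb), chr8:20026305-23156360 (3.13 Mb) and chr12:114462540-117252446 (2.79 Mb). On the right side of the chromosome 1 block, the covered LAD ran on for 762.94 to 1048.5 kb past the block edge in every treated list.

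**Figure D3:**
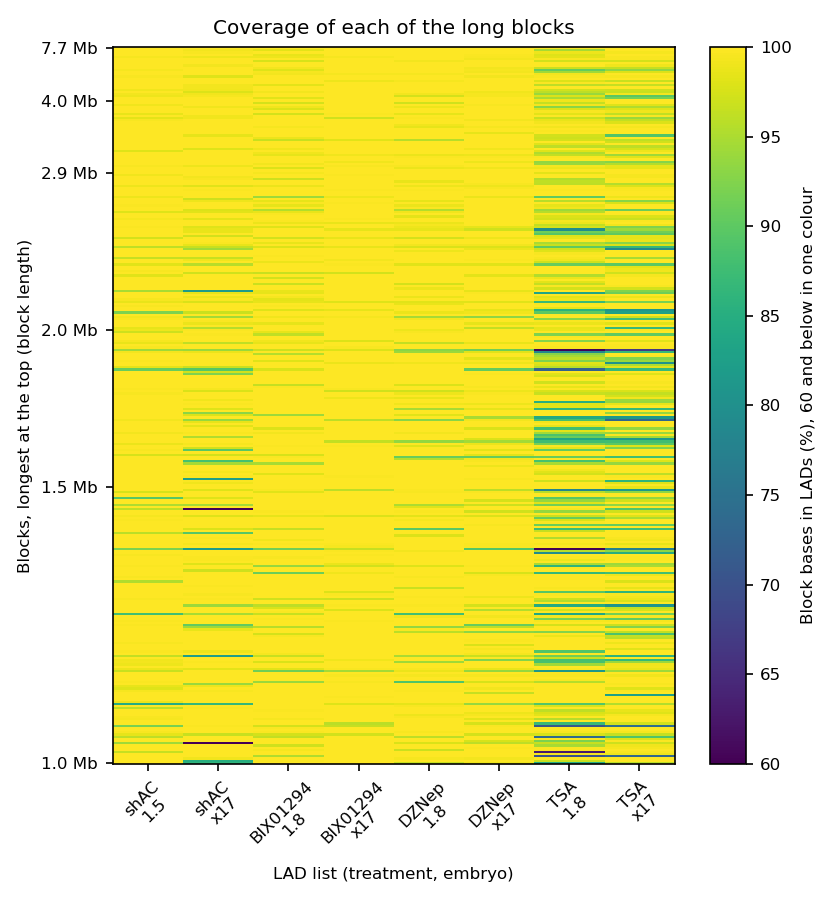
Percentage of bases inside LADs (colour, 60% and below in one colour) for each of the 328 long blocks (rows, longest at the top) in the 8 treated lists (columns). The TSA columns carry the most blocks under 90%, 39 and 36, and the darkest rows are mostly blocks shorter than 2 Mb.

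The 5 longest blocks differed little between treatments. The 7.695 Mb block on chromosome 7 had no break in any list and coverage of 99.96% to 100%. On chromosome 8, the block chr8:98478548-104622354 (6.144 Mb) was complete in TSA embryo x17 and covered to 94.72% in TSA embryo 1.8, where the right edge lay 324.39 kb inside the block. In the other 6 lists it was covered to 98.37% or more. The block chr7:7256948-13361273 (6.104 Mb) had 2 and 1 breaks in the TSA lists and coverage of 98.95% and 99.42%. The lowest coverage of chr15:12866562-18744228 (5.878 Mb) was 98.01%, and that of chr14:108436745-114128670 (5.692 Mb) 98.28%, both in TSA embryo 1.8. The chromosome 14 block had at least 1 break in 7 of 8 lists, all but DZNep embryo 1.8.

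By length, TSA coverage was 95.39% and 96.25% over blocks of 1 to 2 Mb, 97.47% and 97.27% over blocks of 2 to 4 Mb, and 97.65% and 98.13% over longer ones. The retreated share of edges showed no such order, at 14.07% and 14.82%, 14.76% and 14.76%, and 18.75% and 12.5%.

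The lowest TSA coverage was at chr18:50356051-51733862, a 1.378 Mb block with 36.15% in embryo 1.8 and 77.56% in embryo x17. In embryo 1.8 the last LAD ended 546.89 kb from the block start, which left the remaining 830.92 kb uncovered. In embryo x17 there were 2 breaks, and the right edge lay 78.57 kb inside the block. This block was partly uncovered in other lists too: shAC had 92.05% and 82.23%, BIX01294 91.28% and 96.54%, and DZNep 100% and 89.34%. All treated lists but DZNep embryo 1.8 had a break there.

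Next was chr14:123323184-125180150, 1.857 Mb long and reaching the last called bases of its chromosome. TSA covered 60.05% and 66.59% of it. Both TSA lists began 330.69 to 338.09 kb inside the left edge and shared a second opening further in. The other lists covered 91.3% to 97.95%. Both DZNep lists also began inside this edge, by 128.41 and 133.61 kb.

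The third was chr13:67681807-68691558, 1.01 Mb long, covered to 70.18% and 73.55% in TSA. Here the left edges lay 298.82 and 267.09 kb inside the block, and there were no breaks. All other lists covered it completely, except BIX01294 embryo 1.8 at 95.26%.

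**Figure D4:**
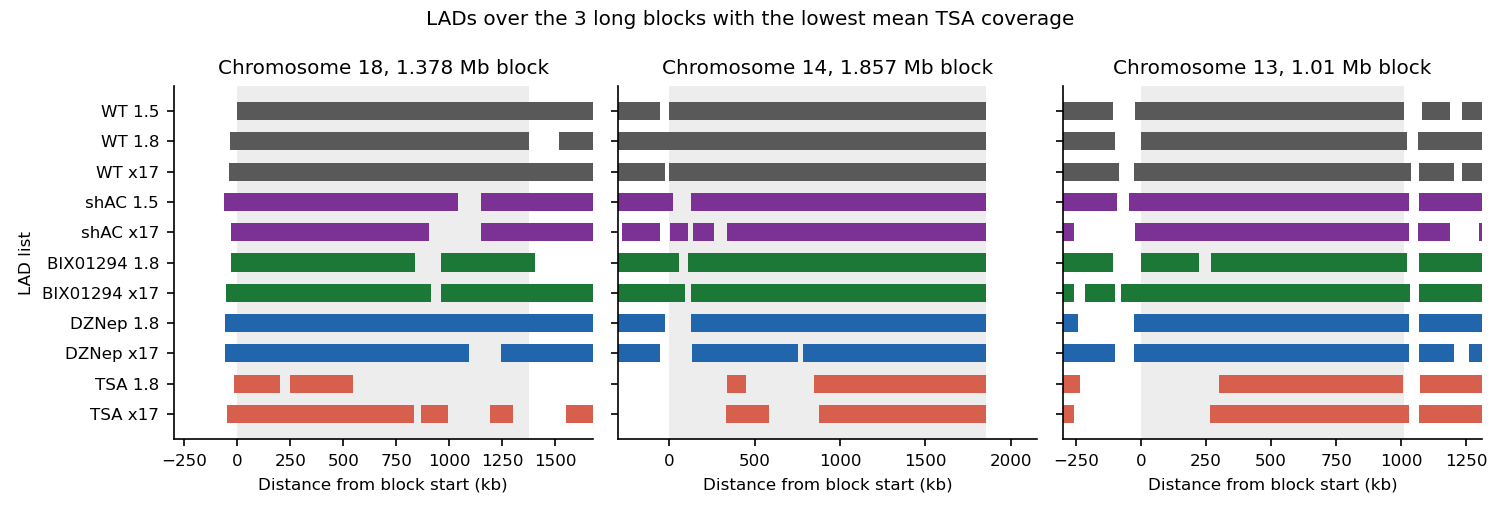
LADs (bars) of the 3 WT and 8 treated lists over the long blocks with the lowest mean TSA coverage, against the distance from the block start in kb, with the block shaded and 300 kb drawn on either side where the chromosome allows. TSA embryo 1.8 leaves the last 830.92 kb of the chromosome 18 block uncovered, and on chromosomes 14 and 13 both TSA lists start far inside the left edge, by 330.69 to 338.09 kb and by 267.09 to 298.82 kb.

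In shAC the lowest blocks were mostly those of 1 list. The block chr14:30260752-31287912 (1.027 Mb) was covered to 33.69% in embryo x17, where its right edge lay 624.22 kb inside, but to 94.35% in embryo 1.5. Similarly, chr7:142945685-144385000 (1.439 Mb) had 41.89% in embryo x17 and 96.16% in embryo 1.5. Only chr1:127594463-128675689 (1.081 Mb) was under 90% in both, at 84.55% and 86.65%, with the right edge 126.39 and 129.38 kb inside the block. The TSA lists covered 89.35% and 95.39% of that block, and the remaining lists 93.8% to 100%.

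The lowest BIX01294 blocks held over 90% in both lists. They were chr7:100123775-101262085 (91.27% and 94.57%), the chromosome 18 block just described, and chr16:74534671-75864050 (90.99% and 99.18%). TSA covered the chromosome 7 block to 81.24% and 94.08%, and the chromosome 16 block to 86.77% and 87.92%.

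The lowest DZNep blocks were the chromosome 14 block that was also low in TSA (93.09% and 91.3%), chr4:68471278-70041879 (90.64% and 90.51%) and chr18:16995980-18116811 (89.18% and 97.53%). At the left edge of the chromosome 4 block both DZNep lists began 147.05 and 149.07 kb inside, and both TSA lists 146.6 and 147.57 kb inside. There the shAC LADs instead reached 1860 and 1862 kb outward, and the BIX01294 LADs began 3.19 and 1.65 kb inside.

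Bases uncovered in both lists of a treatment summed to 10.97 Mb in TSA (1.6% of block bases), 1.283 Mb in shAC, 0.513 Mb in BIX01294 and 1.127 Mb in DZNep. The TSA bases fell into 210 stretches in 160 blocks, 67 of them interior and 143 at a block edge, and 35 were 100 kb or longer. Edges accounted for 7.144 Mb and the interior for 3.824 Mb. The longest was chr14:123323184-123653872, 330.7 kb at the left edge of the block described above. Then came chr5:141776617-142044319, 267.7 kb in the interior of a 1.048 Mb block, where the other lists covered 81.48% to 100%. The third was chr13:67681807-67948894, 267.1 kb.

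Of the 10.97 Mb, 60.0% lay inside LADs of all 6 other treated lists, 22.5% was missing from 1 of them and 8.65% from 2. Over all treated lists, 40.08 Mb of the long blocks (5.86%) were uncovered at least once and 2.481 Mb (0.363%) in at least 4 lists.

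In shAC the longest shared stretches were chr3:150743579-150906377 (162.8 kb, right edge), which both TSA lists also left uncovered, chr1:128549299-128675689 (126.4 kb, right edge) and chr18:51397626-51507179 (109.6 kb, interior), also wholly uncovered in TSA. In DZNep they were chr4:68471278-68618328 (147.1 kb), chr14:123323184-123451589 (128.4 kb) and chr14:87857037-87968963 (111.9 kb), all at left edges. TSA left the chromosome 14 stretch of 128.4 kb uncovered in both lists, but covered 100% and 85.37% of the one of 111.9 kb. In BIX01294 no stretch reached 100 kb. The longest were chr7:101200263-101262085 (61.82 kb), chr12:18616054-18677592 (61.54 kb) and chr6:81561099-81619261 (58.16 kb).

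The background in untreated cells was taken from WT lists that had no part in the blocks. Each WT list was held out in turn, blocks of 1 Mb or more were made from the other 2, and the held-out list was measured on these 348 to 358 blocks. Held-out WT coverage was 98.29% for embryo 1.5, 99.1% for embryo 1.8 and 99.05% for embryo x17. On the same blocks TSA covered 95.41% to 96.12% and the other treated lists 97.96% to 99.65%. The TSA values were below WT each time. The other 6 lists were all above WT embryo 1.5 on its blocks and lay on both sides of WT embryos 1.8 and x17 on theirs.

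Held-out WT lists had 10.36 to 10.79 breaks per 100 Mb and the TSA lists 21.85 to 26.27 on the same blocks. The other treated lists had 4.80 to 12.93 without WT embryo 1.5, 5.39 to 15.22 without embryo 1.8 and 8.05 to 14.59 without embryo x17, on both sides of WT each time. BIX01294 embryo 1.8 and shAC embryo x17 had more breaks than the held-out WT list in all 3 sets. Retreated edges made up 12.57% in WT embryo 1.5, 4.45% in embryo 1.8 and 4.74% in embryo x17. TSA had 20.39% and 22.21% on the blocks made without embryo 1.5 and 16.38% to 17.53% on the others. In the other treated lists, 1.82% to 8.66% of edges had retreated without WT embryo 1.5, all below that WT list. The range was 2.01% to 6.61% without embryo 1.8 and 2.59% to 9.05% without embryo x17, on both sides of WT. With 1 held-out list for each set of blocks, no test was made. The blocks made without WT embryo 1.5 come from embryos 1.8 and x17, which also supplied all treated lists but shAC embryo 1.5. All 4 treated lists of embryo x17 had more breaks on the blocks made without WT embryo x17 than without embryos 1.5 and 1.8. Per 100 Mb, DZNep had 14.32 against 9.99 and 10.1, BIX01294 8.05 against 4.80 and 5.39, shAC 14.59 against 12.53 and 11.18, and TSA 25.23 against 21.85 and 22.63. The shAC list of embryo 1.5 was also highest on that set, at 9.68 against 8.80 and 7.95. Likewise, the treated lists of embryo 1.8 had the most breaks on the blocks made without WT embryo 1.8. Against the sets without embryos 1.5 and x17, BIX01294 had 15.22 against 12.93 and 14.45. DZNep had 10.64 against 9.33 and 9.41, and TSA 26.27 against 24.25 and 25.77. The part of shared embryos in these values was not tested. The retreat seen in WT embryo 1.5 was nearer to TSA than that of the other WT embryos.

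By share of bases, long blocks were better covered than shorter ones in each treated list. Middle blocks, of 250 kb up to 1 Mb (904 blocks), had a mean coverage of 95.45% ± 3.93 (SD, n = 8 lists), against 98.75% ± 1.22 for the long ones. The difference of 3.30 percentage points was positive in 8 of 8 lists, from 0.624 in BIX01294 embryo x17 to 7.55 in TSA embryo x17 (exact sign-flip permutation test over lists, two-sided, p = 0.00781, adjusted p = 0.0156 over 2 tests). The 8 lists share embryos and the WT lists that set the blocks, so they are not fully independent. Any fixed shift of an edge also takes a smaller share of a longer block. By the share of blocks covered to the last base the order was the opposite in all 6 drug lists, from 61.89% of long against 62.06% of middle blocks in DZNep embryo 1.8 to 26.52% against 38.94% in TSA embryo 1.8. In shAC the long blocks were higher, at 62.2% against 59.51% and 53.66% against 46.68%. This order was not tested, and a longer block has more bases in which a break can fall.

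Breaks did not separate the classes at the same threshold with the settings used, and their order depended on those settings. Long blocks had 10.55 breaks per 100 Mb and middle blocks 13.58, a difference of -3.03 (exact sign-flip permutation test, two-sided, p = 0.125), with long blocks lower in all lists but BIX01294 and TSA of embryo 1.8. In the same test, the difference was -27.26 with the lists as deposited (exact permutation p = 0.00781) and turned to 2.71 when only LADs over 500 kb were kept (exact permutation p = 0.0156), so it passed the threshold in both directions. With that limit a break needs a LAD over 500 kb on each side, and both cannot fit inside a middle block. The setting thus restricts breaks in middle blocks, by an amount that was not tested. Short blocks, under 250 kb (873 blocks), were covered to between 72.1% (TSA embryo x17) and 96.91% (BIX01294 embryo x17). Of these, 20 to 217 per list were wholly uncovered, against 0 long blocks.

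**Figure D5:**
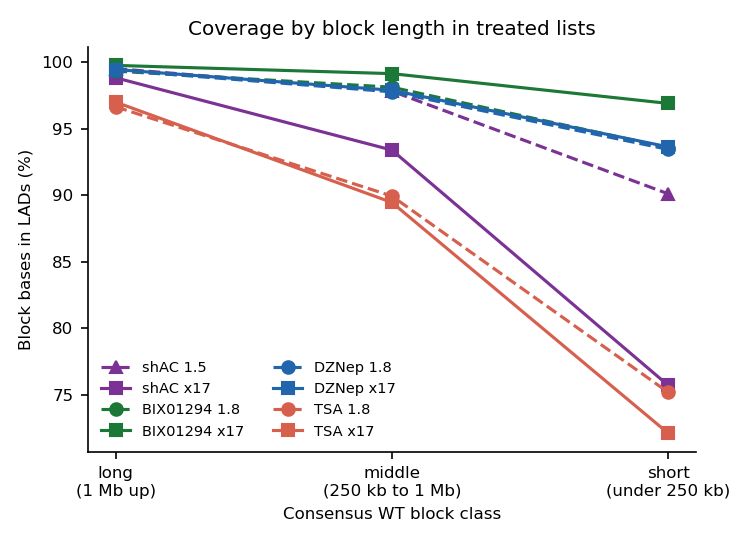
Percentage of block bases inside LADs (vertical axis, not from 0) for long, middle and short consensus blocks, 1 line per treated list. Every line falls from long to short blocks, most steeply for the TSA lists (96.66% to 75.18% and 97.01% to 72.1%) and shAC embryo x17 (98.84% to 75.7%).

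Across chromosomes, TSA coverage of the long blocks ran from 93.48% (chromosome 18, embryo 1.8) to 99.16% (chromosome 11, embryo x17). Chromosome 3 had 93.65% and 95.22% in the TSA lists and chromosome 7 had 98.71% and 98.85%. In shAC embryo x17 the lowest were chromosomes 14 and 7, at 97.63% and 97.73%, which hold the single-list losses described above.

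Each chromosome was also cut into 3 equal parts, and edges in the part nearest the centromere end retreated least. This pattern was chosen after its values were seen and was not tested. The 116 blocks there had 8.62% and 7.33% retreated edges in TSA, against 19.23% and 17.79% in the middle part (104 blocks) and 16.67% and 19.44% in the far part (108 blocks). On these blocks the value next to the centromere end was the lowest of the 3 in all 8 treated lists. On the blocks made without 1 WT list it was the lowest in 6 of 6 cases for TSA, but in 13 of 18 for the other treated lists, with exceptions in BIX01294 and DZNep. In the held-out WT lists it was the lowest in 1 of 3. Their 3 parts, in the same order, had 13.46%, 11.84% and 12.28% in embryo 1.5, 3.49%, 4.63% and 5.41% in embryo 1.8, and 5.47%, 4.17% and 4.46% in embryo x17.

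Neighbouring long blocks were seldom bridged by a single LAD in the treated lists. Of 309 neighbouring pairs, 8 to 18 lay within 1 LAD in the shAC, BIX01294 and DZNep lists. In the TSA lists 1 and 4 did. The WT counts were 13, 13 and 22, but the rule that made the blocks constrains them. Blocks are separate only where at least 1 WT list has a gap, and each block lies within 1 LAD of every WT list. Neither holds by rule for the treated lists, so WT and treated counts cannot be compared.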

How the data were processed

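The 11 deposited lists hold interval starts and ends only (other values, not reads or levels), 1 list for each pair of an experiment and a control library. The authors made them by segmenting DamID ratios with LADetector (version not given in the sources used here), and the build, mm9, comes from the submitters' processing notes. Joining under 25 kb and the 100 kb minimum are steps of the study's methods that are not present in the deposited lists, so both were applied here to all 11 lists alike. Depth is unknown, so differences between lists in reads or in enrichment could change the calls and cannot be seen from the intervals. DamID signal tracks were not used here, and with reference tables of another build no sequence or gene was assigned.

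Blocks are maximal runs of bases in all 3 WT lists. Coverage, breaks and edge positions were computed in Python 3.11.15 with numpy 2.4.6, drawn with matplotlib 3.10.9, and tested on simulated data. Treatments were compared with each other by exact permutation over the 8 treated lists, with Benjamini-Hochberg adjustment, and long with middle blocks by exact sign flips within lists. Each p-value is the share of rearrangements or sign flips of the lists that gave a value at least as extreme. Except with the replicate block, lists were exchanged across embryos, which recur between treatments, so they do not stand for independent animals. Regions named are the 5 longest blocks, the 3 with the lowest mean coverage and the 3 longest shared uncovered stretches of each treatment, the 3 longest complete blocks and 3 on either side of the 1 Mb limit. The blocks, measures and tests were chosen with earlier results of these data known.

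Lists of 1 embryo name were taken as 1 animal. Replicate number 2 is embryo x17 throughout, and number 1 covers embryos 1.5 and 1.8. Deviations of per-block coverage from the treatment mean correlated between lists of the same embryo at -0.17 to 0.182. With 2 lists per treatment the deviations are mirror images, so the drug values of embryos 1.8 and x17 are equal by construction and do not check the embryos separately. Alternatives changed the joining, the LAD and block lengths, the WT consensus, the block ends, the chromosomes, the limits for breaks, retreat and calls, and the replicate block, and left out each list in turn.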

Additional observations from a re-analysis of the deposited data

How the results depend on the processing

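The 3 comparisons over all treatments (61 alternative values) and the 12 of 1 treatment against the others (244 values) had adjusted p above 0.05 under every alternative run, and the 12 kept their direction. Unadjusted p from the exact permutation tests did cross 0.05: for TSA it rose from 0.0357 to 0.143 without either TSA list, and over all treatments it fell to 0.019 for retreat over 0 kb, to 0.0476 for retreat over 100 kb, and without shAC 1.5 to 0.0286 for coverage and 0.0381 for retreat. For TSA the differences ranged from -4.63 to -1.26 points in coverage, from 2.85 to 25.2 in breaks per 100 Mb and from 5.26 to 21.27 points in retreated edges, with adjusted p from 0.143 to 0.571 in exact permutation tests. With the replicate block, in which lists were exchanged only within a replicate number, the TSA difference in coverage stayed at -2.56 with p = 0.0625 by exact permutation (adjusted 0.25), and the block changed no call on adjusted p. With 0.0357 as the smallest p of an exact permutation test here, 3 such values among 12 tests cannot pass 0.05 after adjustment, so a kept call says little. Of 160 alternative values of the treatments' means that could move (lists of other treatments left out do not enter them), 91 moved by more than the spread between replicates, counting any change of the TSA retreat mean, whose SD was 0. Long against middle coverage stayed past the threshold throughout, at 1.82 to 7.93 points. For breaks the difference was -27.26 with the lists as deposited and -4.91 with 50 kb trimmed from block ends, both then past the threshold. It reversed to 2.71 with LADs over 500 kb, past the threshold in the opposite direction (exact permutation p = 0.0156), and to 0.14 with breaks of 100 kb or more (p = 0.766), and ran from -5.35 to -1.92 with 1 list left out, passing the threshold without WT 1.5 (-4.56), WT x17 (-5.35) or TSA 1.8 (-4.27). The 500 kb limit itself restricts breaks in middle blocks, as described above, and the cause of these changes was not tested.

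The number of long blocks under 90% in both lists depended on the settings. For TSA (21) it was 4 with the lists as deposited, 47 with joining under 50 kb, 47 with LADs over 500 kb, 2 with blocks of 2 Mb or more, 74 with 2 of 3 WT lists, 12 with trimmed ends, 4 under 80%, 53 under 95% and 21 to 39 with 1 list left out. For shAC (1) these were 0 as deposited, 9 over 500 kb, 0 at 2 Mb, 8 with 2 of 3 WT lists, 0 trimmed, 0 under 80%, 7 under 95% and 1 to 13 with 1 list left out. For DZNep (0) they were 1 as deposited, 3 with wider joining, 3 over 500 kb, 9 with 2 of 3 WT lists, 4 under 95% and 0 to 3 with 1 list left out. For BIX01294 (0) they were 1 over 500 kb, 2 with 2 of 3 WT lists, 1 under 95% and 0 to 1 with 1 list left out. Without 1 list of a treatment the count is over the remaining list alone, which can only equal or exceed the count over both. On blocks made without WT x17 the counts were 39, 5, 3 and 1 for TSA, shAC, DZNep and BIX01294.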
